A study of Nicotiana tabacum with 12 samples.

Results

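Transcript levels of 3 TCR and 3 TWTR root libraries of tobacco (Nicotiana tabacum) were compared gene model by gene model. The libraries were taken by their titles, and the models by a mean of at least 1 FPKM over these 6 libraries. FPKM is a fragment count divided by transcript length and by how many fragments a library had mapped. This left 19797 of the 25273 models in the table to be tested, and 5476 below that mean were not tested. The series holds 12 libraries in 4 groups of 3, titled TCR, TWTR, CR and WTR. Its sample descriptions say nothing that tells these groups apart beyond the titles. Each of them gives the same account, of seedlings of a mutant of NtLHT1 held for 15 days in a nutrient solution abbreviated LN. The codes are used as written, and no genotype, treatment or plant age was attached to any of them. Separate plants are not named for the replicates either. The p-values therefore set group differences against the scatter of these libraries only. That scatter may be technical.

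LHT1 proteins carry amino acids across the plasma membrane into plant cells, and in Arabidopsis LHT1 takes up amino acids at the root surface. Roots supply plants with nitrate, ammonium and amino acids, and they alter their transporters and enzymes of nitrogen assimilation when nitrogen is scarce. Cultivated tobacco is an allotetraploid, so many of its genes exist as similar copies from a pair of parental genomes. The table identifies models by Nitab4.5 codes without gene names, and 0 of these codes were found in the RefSeq gene table of tobacco. No model could therefore be given a name, a role or a sequence, and NtLHT1 itself was not analysed here.

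TCR roots differed from TWTR roots in 1986 models, 10% of those tested. In TCR, 995 models were higher (5.03%) and 991 were lower (5.01%). These calls have a Benjamini-Hochberg adjusted p under 0.05 in limma's moderated test on log2(FPKM + 1), fitted to the 6 libraries. All differences below are TCR minus TWTR on that scale unless another pair is named. The scale understates the change of models near 0. Differences in bulk roots may come from fewer cells of a type or from less RNA per cell, which cannot be told apart here.

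The calls were mostly small. The median size was 0.487 among models that rose and 0.486 among those that fell, and 9 in 10 of the called models that rose lay below 1.08. Over all tested models the median size was 0.158. A doubling or more was reached by 131 of the models that rose, which is 0.662% of those tested, and a halving or more by 93 of those that fell, which is 0.470%. A log2 difference of 2 or more was reached by 6 models that rose and 8 that fell. The largest rise (3.755) and the largest fall (5.399) were in models listed at 0 in every library of the other group. Such models passed the minimum mean through 1 group alone, so these sizes are a description. Among the 224 doubled or halved models, 16 that rose and 7 that fell were listed at 0 in at least 1 of the 6 libraries. Of all tested models, 260 had a mean of 1 FPKM or more in TCR alone and 267 in TWTR alone. Among these, 29 were called higher and 29 lower in TCR. They met the minimum mean through the group where they were high, so their calls are a description.

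The number of calls depended on single libraries. Without TCR replicate 1 the fit called 379 models higher and 448 lower, and without TCR replicate 2 it called 364 and 429. Without TCR replicate 3 the counts were 444 and 481, and without TWTR replicate 3 they were 493 and 465. Leaving out TWTR replicate 1 gave 1089 and 984, and leaving out TWTR replicate 2 gave 1052 and 874. With all 6 libraries and in each of these 6 fits, 295 models were called higher and 355 lower in TCR, 650 in all. Of those, 67 reached a doubling and 77 a halving. The doubled models numbered 85 without TCR replicate 2, and with a pseudocount of 5 there were 31 doubled and 35 halved models.

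**Figure D1:**
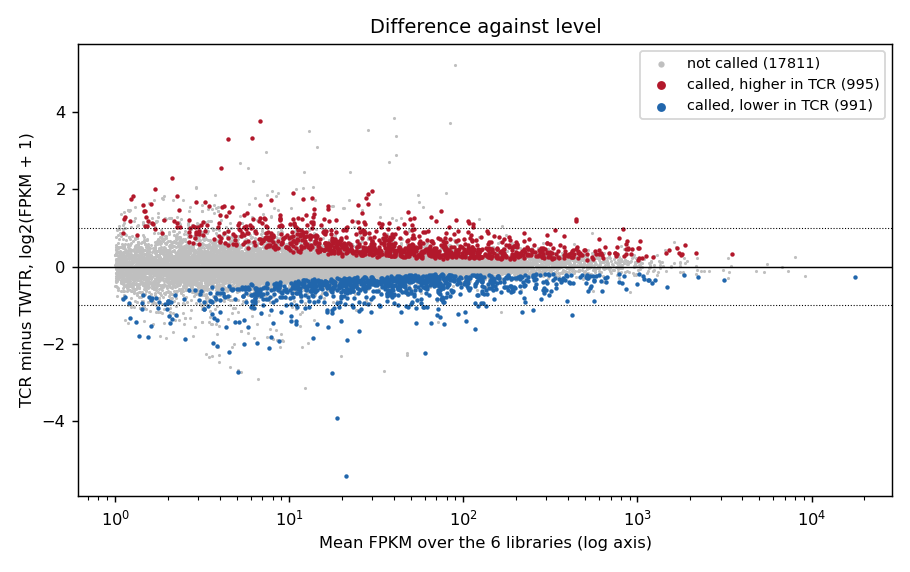
Difference between TCR and TWTR on the log2(FPKM + 1) scale (vertical axis) against the mean FPKM over the 6 libraries (horizontal log axis), 1 point for each of 19797 gene models. Called models lie on both sides of 0, 995 above and 991 below, and 131 and 93 of them lie beyond the dotted lines at a doubling and a halving.

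Large differences without a call were more frequent than those with one. A doubling or more in TCR was reached without a call by a further 141 models, and a halving or more by 107. Among these, 109 of the doubled and 89 of the halved models were listed at 0 in some library of the 6. The libraries of the groups overlapped in 105 and 76 of them. All called models had no overlap between the 3 and 3 libraries, with 0 exceptions in either direction. A call with 3 libraries a side nearly requires this, so it is no separate support for the calls.

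Without regard to the test, all 3 TCR libraries lay above all 3 TWTR libraries in 3028 models (15.3% of those tested) and below them in 3498 (17.7%). Of these, 2033 and 2507 were not called. The balance of the directions depended on the scaling. Median-of-ratios scaling gave 3320 above and 3200 below, and TPM scaling gave 2778 and 3770. Calls were more frequent among abundant models. From 1 to 5 FPKM, 145 of 4163 models were called (3.48%), and from 5 to 20 FPKM 508 of 6600 (7.70%). From 20 to 100 FPKM, 837 of 6828 were called (12.3%), and at 100 FPKM and more 496 of 2206 (22.5%). The median size of the difference over all models of these classes was 0.229, 0.165, 0.128 and 0.148, and over the called models 0.952, 0.626, 0.427 and 0.365. The called models were chosen for passing the test, so their sizes are a description.

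**Figure D2:**
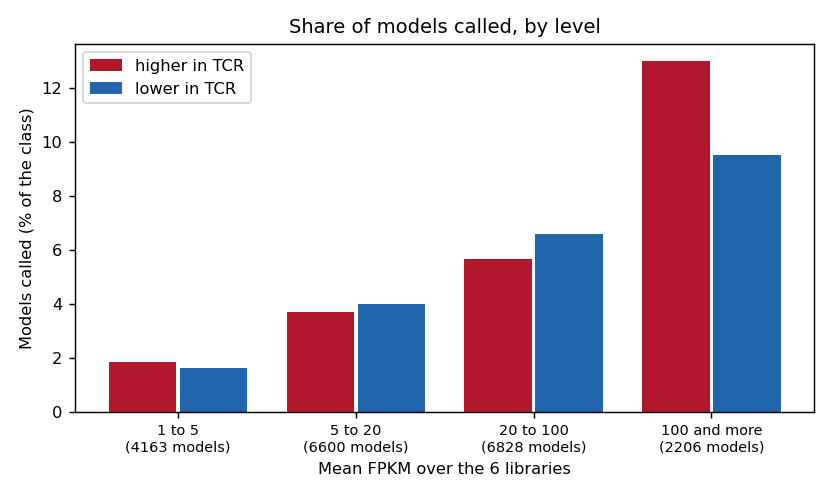
Share of gene models called higher (red) or lower (blue) in TCR than in TWTR, in percent of the models of each class of mean FPKM over the 6 libraries. The share of higher models was 1.85% in the lowest class and 13.0% in the highest, and that of lower models 1.63% and 9.52%.

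Among the 100 most abundant models, 17 were higher in TCR and 13 lower, and 0 of them doubled or halved. The largest differences among them were 0.66 and -0.52. The single most abundant model gave 15636, 16500 and 16474 FPKM in the TCR libraries, against 17912, 20666 and 20092 FPKM in the TWTR libraries. All TCR values lay below all TWTR values, and the difference was -0.27 (SE 0.0607, limma adjusted p 0.0344). The 10 most abundant models of each library, ranked within that library, held 6.16% ± 0.0236 of the FPKM sum in TCR and 6.66% ± 0.162 in TWTR (SD, n = 3 each). The groups did not overlap, and the exact two-sided permutation p was 0.1, the smallest that 3 libraries against 3 can give. At 1 FPKM or more there were 19620 ± 35.1 models in TCR and 19585 ± 48.4 in TWTR (SD, n = 3 each), with overlapping libraries and an exact permutation p of 0.5.

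The TWTR libraries differed more among themselves than the TCR libraries. The median SD of a model over 3 libraries was 0.0999 in TCR and 0.135 in TWTR on the log2(FPKM + 1) scale, and 62.8% of the tested models had the larger SD in TWTR. Over all tested models, TCR libraries correlated with one another at 0.9787 to 0.9804 and TWTR libraries at 0.972 to 0.975, against 0.963 to 0.969 between the groups. The first principal component of the 6 libraries (36.2% of the variance) put TCR at 23.7 to 27.0 and TWTR at -32.5 to -18.8. On the second (19.1%) TWTR replicate 1 stood at 32.7 and TWTR replicate 2 at -31.1, while the other 4 libraries lay between -6.02 and 7.15. Relative depths, read from the smallest values and set to 1 in TCR replicate 1, lay between 0.969 and 1.21. Absolute depth is unknown from FPKM.

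The models with the largest differences were chosen by a rule: called, at 5 FPKM or more in the higher group, without overlap and above 0 in all 6 libraries. This left 941 models that rose and 944 that fell, from which the outermost pair in each direction was taken. Nitab4.5_0000037g0350 had 51.32, 46.44 and 46.56 FPKM in TCR and 12.4, 11.5 and 11.3 FPKM in TWTR. Its 3 TCR values were at least 3 times as high as any TWTR value, and its replicates were close in both groups. The mean was 48.1 ± 2.78 FPKM in TCR and 11.7 ± 0.586 FPKM in TWTR (SD, n = 3 each), a 4.10-fold level with a log2 difference of 1.95 (SE 0.0750, limma adjusted p 6.02e-05).

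Nitab4.5_0000436g0210 rose to a similar degree from a lower level. It had 16.76, 17.86 and 16.61 FPKM in TCR, against 2.94, 4.99 and 3.74 FPKM in TWTR. The groups were far apart, with TWTR replicate 2 the highest of its group. Its mean was 4.39 times as high in TCR, with a log2 difference of 1.91 (limma adjusted p 0.000919, SE 0.158).

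Nitab4.5_0002076g0130 showed the largest fall of the models that met the rule. Its TCR libraries held 2.46, 0.75 and 1.44 FPKM, against 32.48, 40.76 and 35.29 FPKM in its TWTR libraries. Every TWTR library was above 30 FPKM, where no TCR library exceeded 3. The mean was 23.3 times as high in TWTR as in TCR, with a log2 difference of -3.92 (limma adjusted p 0.000383, SE 0.238). With a pseudocount of 5 in place of 1 it was -2.66.

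Nitab4.5_0000109g0460 fell to 3.48, 3.29 and 4.76 FPKM in TCR, against 31.52, 34.84 and 27.74 FPKM in TWTR. The groups again did not overlap, and the mean was 8.16 times as high in TWTR. On the log2 scale TCR minus TWTR came to -2.75 (limma adjusted p 0.000215, SE 0.143). All of these 4 differences kept their sign and their call in each of the 16 alternative fits, with limma adjusted p of at most 0.00875. The models were chosen for extreme differences and the fits reuse the same libraries, so this is no separate support.

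**Figure D3:**
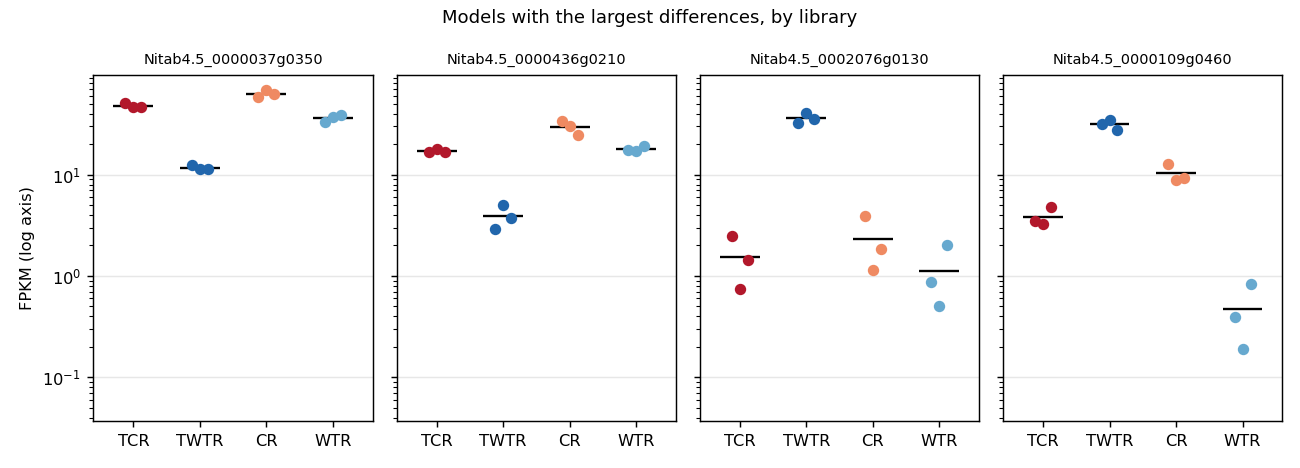
FPKM (log axis) of 4 gene models in each library of TCR, TWTR, CR and WTR; points are libraries and bars are group means. TCR lies above TWTR in the first pair of panels and below it in the second, and TWTR lies on the far side of all other libraries in every panel.

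The other groups placed TWTR, and not TCR, at the extreme for each of these models. CR had 58.48, 68.11 and 63.13 FPKM of Nitab4.5_0000037g0350 and WTR had 33.25, 36.99 and 38.85, so that TWTR was the lowest of the 4 groups. For Nitab4.5_0000436g0210 the CR libraries gave 33.8, 29.96 and 24.89 FPKM and the WTR libraries 17.33, 17.03 and 19.22, and TWTR was again lowest. For Nitab4.5_0002076g0130 the values were 3.94, 1.15 and 1.84 FPKM in CR and 0.88, 0.51 and 2 in WTR, as low as in TCR. Nitab4.5_0000109g0460 had 12.83, 8.86 and 9.17 FPKM in CR but 0.39, 0.19 and 0.84 in WTR, so that TWTR was highest and WTR lowest.

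The same comparison of levels was made for all called models. CR and WTR entered neither the fit nor the choice of these models. Among the 991 models lower in TCR, the CR and WTR levels (means of log2(FPKM + 1)) both lay nearer to TCR in 607 (61.3%) and both nearer to TWTR in 110 (11.1%). TWTR had the highest mean FPKM of the 4 groups in 767 of them, CR in 171 and WTR in 53. The lowest was WTR in 421, CR in 288 and TCR in 282. Among the 995 models higher in TCR, both levels were nearer to TCR in 465 (46.7%) and nearer to TWTR in 192 (19.3%). Here TWTR was the lowest of the 4 groups in 661, CR in 197 and WTR in 137. The highest was CR in 432, TCR in 330 and WTR in 233. TWTR was also the group with the larger SD, and the part of that SD in these counts was not tested. The same shares over all tested models were not computed. Whether these counts, or those below, are particular to called models is therefore not known.

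The doubled and the halved models differed in this respect. Of the 93 halved models, 61 had CR and WTR both nearer to TCR and 5 had both nearer to TWTR. Of the 131 doubled models, 43 had both nearer to TCR, 36 had both nearer to TWTR and 36 had CR nearer to TCR with WTR nearer to TWTR. TCR was the highest group in 66 of the doubled models and CR in 51. The difference between the doubled and the halved models was not tested.

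**Figure D4:**
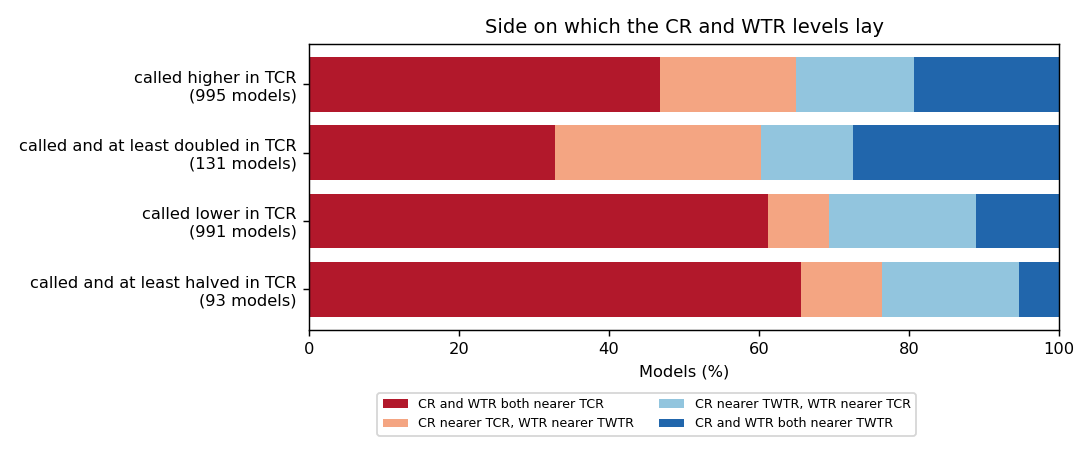
Share of models (%) by the group, TCR or TWTR, to which the CR and the WTR mean of log2(FPKM + 1) lay nearer, for the models called higher and lower in TCR and for the doubled and halved ones among them. Both lay nearer to TCR in 61.3% of the models called lower and in 65.6% of the halved ones, against 46.7% of those called higher and 32.8% of the doubled ones.

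**Figure D5:**
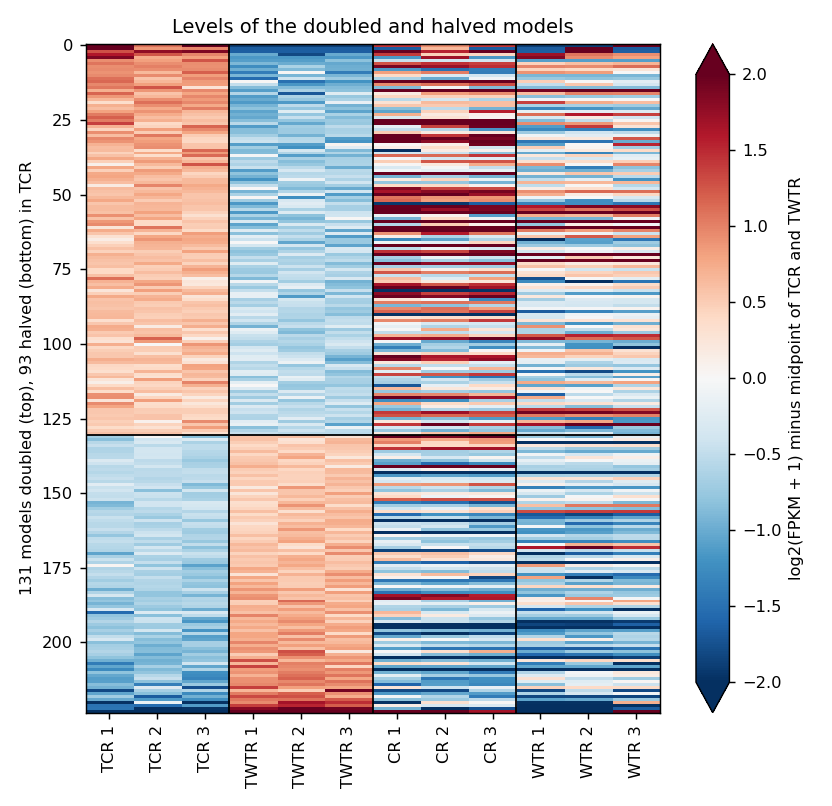
Levels of the 131 doubled and 93 halved models (rows) in the 12 libraries (columns), as log2(FPKM + 1) minus the midpoint of the TCR and TWTR means, from blue (lower) to red (higher), with colours ending at 2 in either direction. The 3 libraries of a group are alike in most rows, and in the halved rows CR and WTR are mostly on the side of TCR.

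The called models also carried a different part of the total signal. Models higher in TCR held 12.2% of the FPKM sum in each TCR library and 9.35%, 9.06% and 9.17% in the TWTR libraries. In CR they held 12.7% to 13.1%, and in WTR 13.5% to 13.9%. Models lower in TCR held 8.26%, 8.28% and 8.38% in the TCR libraries and 10.8%, 11.5% and 11.3% in the TWTR libraries. Without the most abundant model these shares were 6.83% to 6.92% in TCR and 9.17% to 9.66% in TWTR. The models had been chosen on the TCR and TWTR values, so the shares of these groups are a description.

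A few models were detected on one side alone. At 1 FPKM or more in every TCR library and listed at 0 in every TWTR library were 8 models, with TCR values of 1.15 to 26.33 FPKM. Of these, 6 reached the mean needed for testing. They did so through TCR alone. All 6 are among the models called higher and doubled above, and these calls are a description. In CR, 5 of the 8 were above 0 in all libraries, and in WTR 2 were at 0 in all and 5 were at 0 in some. The reverse was found in 1 model, which reached that mean through TWTR alone, so its call among the halved models is a description too. All of its TCR libraries were listed at 0, and its TWTR libraries held 36.95, 33.6 and 56.24 FPKM. Its CR libraries held 78.27, 54.46 and 19.6 FPKM, while WTR was listed at 0 in all but 1 library, which held 60.81 FPKM.

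Codes that share a scaffold number and run consecutively gave some information on neighbouring models, although the table holds no coordinates. Nitab4.5_0000037g0350 stands between the first and the third most abundant models of these roots. The third, just before it, had 8732 ± 181 FPKM in TCR and 7393 ± 1064 FPKM in TWTR (SD, n = 3 each), a difference of 0.25 (SE 0.0996, limma adjusted p 0.163). The first, just after it, had the fall of 0.27 given above. In CR the first and the third were at 4829 and 1895 FPKM on average, against 18795 and 7983 in WTR, while the model between them was higher in CR than in WTR. Whether these models share sequence was not tested.

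The other named models were chosen for extreme differences, so smaller differences in their neighbours follow from that choice. Many of the nearest tested models did not have directly consecutive codes. For Nitab4.5_0002076g0130, the model with the next code had 8.41 ± 1.56 FPKM in TCR and 9.01 ± 0.660 FPKM in TWTR (SD, n = 3 each; limma adjusted p 0.692). Its 3 nearest tested models on the other side were higher in TCR, by 0.69, 0.59 and 0.59, and limma called 2 of them (adjusted p 0.0763, 0.044 and 0.0263). The 6 nearest tested models of Nitab4.5_0000109g0460 had differences of -0.35 to 0.26, and the 4 of Nitab4.5_0000436g0210 had differences of -0.76 to -0.15, with 0 called in either case. Over all 11676 pairs of tested models with consecutive codes, 52.3% had differences of the same sign. Of the 1148 models that directly followed a called one, 10.9% were called, close to the 10% over all tested models. In the resulting 125 pairs, 73 were in the same direction (58.4%) and 52 in opposite directions. Only 1 run of 3 consecutive called models moved together, and it was higher in TCR.

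CR and WTR bear the same titles without the leading T, and they come from other libraries, so their difference can be set beside that of TCR and TWTR. In a fit of CR and WTR alone over the same 19797 models, 4276 were higher in CR (21.6%) and 2936 lower (14.8%). Of the 995 models higher in TCR, 372 were also higher in CR (37.4%) and 260 lower (26.1%). Of the 991 lower in TCR, 184 were lower in CR (18.6%) and 349 higher (35.2%). These make up 8.70% of the CR list of higher models and 6.27% of its list of lower models for the calls of equal direction, and 8.16% and 8.86% for those of opposite direction. These counts depended on single libraries. Leaving out any 1 TCR library or TWTR replicate 3 gave 150 to 193 in place of 372, 115 to 160 in place of 260, 87 to 103 in place of 184 and 166 to 175 in place of 349. All 4 shares given of the TCR lists exceed those among all tested models, and called models are also the more abundant ones. The median CR minus WTR difference was 0.135 for models higher in TCR, 0.114 for models lower in TCR and 0.0331 for all tested models.

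Of the 131 doubled models, 56 were higher in CR than in WTR by limma (42.7%) and 19 lower (14.5%), with a median CR minus WTR difference of 0.522. Of the 93 halved models, 32 were higher (34.4%) and 29 lower (31.2%), with a median of 0.0822. Whether the doubled or the halved models differ in this from the other called models was not tested. A limma contrast over all 12 libraries tested whether TCR minus TWTR differed from CR minus WTR. This contrast was positive and past the threshold in 2292 models and negative in 3490, together 29.2% of those tested. Which sign was more frequent depended on the scaling. Median-of-ratios scaling gave 2769 positive and 3018 negative, and quantile scaling gave 3040 and 2758.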

How the data were processed

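Root RNA was sequenced by the submitters on a DNBSEQ-T7 instrument after TRIzol extraction and messenger RNA enrichment, per the labels' protocols. Reads were cleaned with fastp, aligned with STAR and assembled with StringTie2 with a Cuffcompare step, also per the labels' protocols. Builds, versions and the program that gave the abundance values are not given in the sources used here. The authors deposited FPKM in 1 table, per the file headers, with no counts and no transcript lengths. Scaling by the library total lets a few abundant transcripts shift all others, and fragments shared by similar gene copies may be split between them.

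The titles gave the groups. The tests used limma 3.58.1 (trend and robust options) in R 4.3.3, on log2(FPKM + 1) of the models whose 6 libraries averaged 1 FPKM or more. A fit of 12 libraries is an alternative here, since it lets the spread of CR and WTR enter into calls between TCR and TWTR. The submitters name DESeq2 for their calls; it needs counts and was not used. For single measures the exact permutation test (two-sided) was used. The procedure was run on simulated data with the same spread in both groups. TWTR had the larger median SD in the real libraries, and the simulation does not cover that. The main fit has no replicate block. Deviations of same-numbered TCR and TWTR libraries correlated at 0.0417, -0.00385 and 0.0219. Such values cannot exclude that same-numbered libraries were handled together, which the titles do not say. Relative depth is the commonest ratio of small values among 3953 models listed at 0 in at least 4 of the 12 libraries, and a second route differed by at most 0.870%. Gene lists and markers, which need gene names, could not be used. Named models were the 2 largest rises and 2 largest falls under the rule given with them. Models, lists and tests were chosen with earlier results of these data known. The comparison of CR and WTR levels and the counts of consecutive codes were added after the data were seen.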

Additional observations from a re-analysis of the deposited data

Results flagged for a closer look

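The 4 named models differed between TCR and TWTR in another way than between CR and WTR, by limma's interaction contrast over all 12 libraries. The value for Nitab4.5_0000037g0350 was 1.165 (limma adjusted p 1.16e-05), from a TCR minus TWTR difference of 1.95 and a CR minus WTR difference of 0.78 in the same direction. For Nitab4.5_0000436g0210 it was 1.22 (limma adjusted p 0.000877), from differences of 1.91 and 0.69. Nitab4.5_0002076g0130 gave -4.523 (limma adjusted p 3.48e-05), and its CR minus WTR difference of 0.61 was not called (limma adjusted p 0.238). Nitab4.5_0000109g0460 gave -5.691 (limma adjusted p 4.77e-08): it fell by 2.75 in TCR against TWTR, and its CR minus WTR difference was 2.94 (limma adjusted p 5.89e-05). These models were chosen for a large TCR minus TWTR difference, which enters into the contrast, and the contrast passed in 29.2% of all models tested. Each of the 4 passed in all 18 alternatives. Their sizes shrank with a pseudocount of 5, to 0.943, 0.729, -2.90 and -3.51 in the order given.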

How the results depend on the processing

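The 4 named differences kept sign and call in all 16 alternatives, which reuse the libraries that these models were chosen on. The calls, 995 higher and 991 lower, came to 564 and 552 with the replicate block. Of these, 532 and 524 were calls of the fit without it. Whether the replicate numbers pair the libraries is not known. Without limma's trend and robust options 610 models were called higher and 721 lower. Doubled models numbered 87 where the minimum mean was set to 5 FPKM, and doubled and halved models 31 and 35 with a pseudocount of 5. On leaving out each library, the calls ranged from 364 to 1089 higher and from 429 to 984 lower, and the doubled models from 85 to 145. The fit of all 12 libraries called 1404 higher and 1344 lower, among them 932 and 913 of the calls. TPM scaling gave 46.7% of calls higher and median-of-ratios scaling 54.9%, in place of 50.1%. Models at 0 in TWTR numbered 16 with a minimum of 0.5 FPKM in TCR and 2 with a minimum of 5, and the reverse 6 with a minimum of 0.5. On leaving out each library these counts ranged from 17 to 22 and from 7 to 11. The cause of these shifts was not tested, beyond the fewer models or libraries that some settings hold. Over 3 scalings and 12 left-out libraries, chosen after the data were seen, both CR and WTR lay nearer to TCR in 60.3% to 64.9% of models called lower and in 42.9% to 50.4% of those called higher. On leaving out libraries, the models higher in both TCR and CR numbered 150 to 399, and those lower in both 87 to 193. Absolute depth is unknown, so no counting error could be given.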
